A study of Mus musculus with 10 samples.

Results

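Pyruvate dehydrogenase is the mitochondrial complex that turns pyruvate into acetyl-CoA, and it commits the carbon of glucose and lactate to oxidation. The 10 genes described here encode the complex's catalytic subunits Pdha1, Pdhb and Dlat, its inhibitory kinases Pdk1, Pdk2, Pdk3 and Pdk4, its activating phosphatase Pdp1, and Mpc1 and Mpc2, which together form the carrier that brings pyruvate into mitochondria. They were chosen by name from the 38355 genes of a table of read counts, and all 10 passed the filter on low counts. Adult cardiomyocytes isolated by perfusing the heart had been sequenced from FVB/N mice, 5 with the Epac1-PLN transgene and 5 wildtype. The transgene is a cardiac FRET sensor whose name joins Epac1, which binds cAMP, with phospholamban, which restrains calcium uptake into the sarcoplasmic reticulum. Epac1-PLN replicates 1 and 5 and wildtype replicates 1 and 2 were males, and the other libraries were females. The mice had no treatment, and each library is labelled as a biological replicate. The sources used here give neither the promoter of the transgene nor the ages, feeding and time of day at cell isolation.

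A working heart draws most of its ATP from fatty acids and shifts towards glucose and lactate according to fuel and hormone supply. The kinases phosphorylate the E1 alpha subunit, made from Pdha1, and switch the complex off, while the phosphatases remove that phosphate. Pdk4 is the most inducible of the kinase genes in heart and skeletal muscle: fasting, fatty acids and glucocorticoids raise its transcripts through nuclear receptors of the PPAR family and through FOXO factors, and insulin lowers them. Transcript counts measure neither phosphorylation nor the activity of the complex.

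Library totals ran between 10632224 and 20983754 counts, of which the 10 genes made up 0.496% to 0.682%. Rapgef3, the gene for Epac1, was at 1241 to 1741 CPM (counts scaled to a common library size) in Epac1-PLN libraries and at 10.36 to 15.95 CPM in wildtype libraries. Pln, the gene for phospholamban, was at 7821 to 11610 CPM in Epac1-PLN libraries and at 10170 to 13180 CPM in wildtype libraries, ranges that overlapped. Xist and Ddx3y matched the labelled sex in every library. The 10 cardiomyocyte marker genes summed to 117600 to 137300 CPM in Epac1-PLN libraries and to 120600 to 144500 CPM in wildtype libraries. Epac1-PLN replicate 4 stood somewhat apart, with a median Spearman correlation to the other libraries of 0.983, against 0.986 to 0.991 for the others. The genotype effects of Pdk4, Pdk3, Pdha1 and Pdhb are given with and without this library.

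One pair of sequences bears on how far the counts of Mpc1 can be read. Mpc1 (ENSMUSG00000023861, chr17:8282904-8297661, plus strand, mm10) has a processed pseudogene, Mpc1-ps (ENSMUSG00000091498), which the deposited table places at chr12:110858070-110858942. In GENCODE M21 the 327 coding bases of the Mpc1 transcript ENSMUST00000046754 aligned to the pseudogene without a gap, and 325 of them were identical (99.4%). The longest identical run was 252 bases. Both substitutions, G41A and T75G, lie within the first 90 coding bases, where the base of Mpc1 is given first and positions are counted from 1 at the first base of the start codon. Those bases are shown for the gene and its copy, with capitals at the differences.
Mpc1, coding bases 1 to 90, spliced, within chr17:8283891-8296549, plus strand: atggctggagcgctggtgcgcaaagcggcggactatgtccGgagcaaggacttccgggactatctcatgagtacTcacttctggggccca
Mpc1-ps, bases 1 to 90, chr12:110858805-110858894, minus strand: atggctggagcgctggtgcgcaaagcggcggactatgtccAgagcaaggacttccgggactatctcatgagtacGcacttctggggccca
A read from the last 252 coding bases carries no difference that tells the gene from the copy, unless it reaches the untranslated parts or crosses a splice junction that the aligner uses. The table assigned 10195 counts to Mpc1 and 15047 counts to Mpc1-ps over the 10 libraries, so the level of Mpc1 is uncertain and its values are also given for both loci together.

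The kinases were the most and the least abundant of the regulators. Levels can be compared between genes only per length, and CPM per kb of exon is used for that. Pdha1 had the highest mean, 463 ± 29.1 CPM per kb of exon over the 10 libraries (SD). Pdk4 averaged 318 ± 137, Pdk2 187 ± 13.7, Dlat 161 ± 6.29 and Pdhb 143 ± 8.96 CPM per kb of exon. Each of these genes overlapped the next in its range over libraries. Pdk1 at 66.02 ± 4.6 and Mpc2 at 53.2 ± 3.69 CPM per kb of exon overlapped only at their edges. Mpc1 at 32.6 ± 1.37, Pdp1 at 8.74 ± 1.22 and Pdk3 at 0.625 ± 0.227 CPM per kb of exon each stood clear of the gene above. With the counts of Mpc1-ps added, Mpc1 reached 81.0 ± 6.33 CPM per kb of exon, above the means of Mpc2 and Pdk1. The order also depends on the length used. Per kb of coding sequence Mpc2 was second, at 989 ± 68.6 CPM per kb, against rank 7 by exon length, and Pdhb at 513 ± 32.1 stood above Pdk2 at 485 ± 35.6 and Dlat at 408 ± 16.0 CPM per kb. Pdha1 was highest and Mpc1, Pdp1 and Pdk3 were lowest, in that order, with either length.

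Of the 10 genes, 8 had coefficients of variation between libraries of 3.91% to 14.0%. The median over all 12629 tested genes was 13.5%. Pdk4 had the highest of the 10 genes, 43.0%, and its highest library held 3.31 times the CPM of its lowest. Among the 1602 tested genes with a mean of at least 100 CPM, 9 varied more (0.562%), and the median was 9.01%. Pdk3 varied by 36.3%, on 12 to 42 counts a library.

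**Figure D1:**
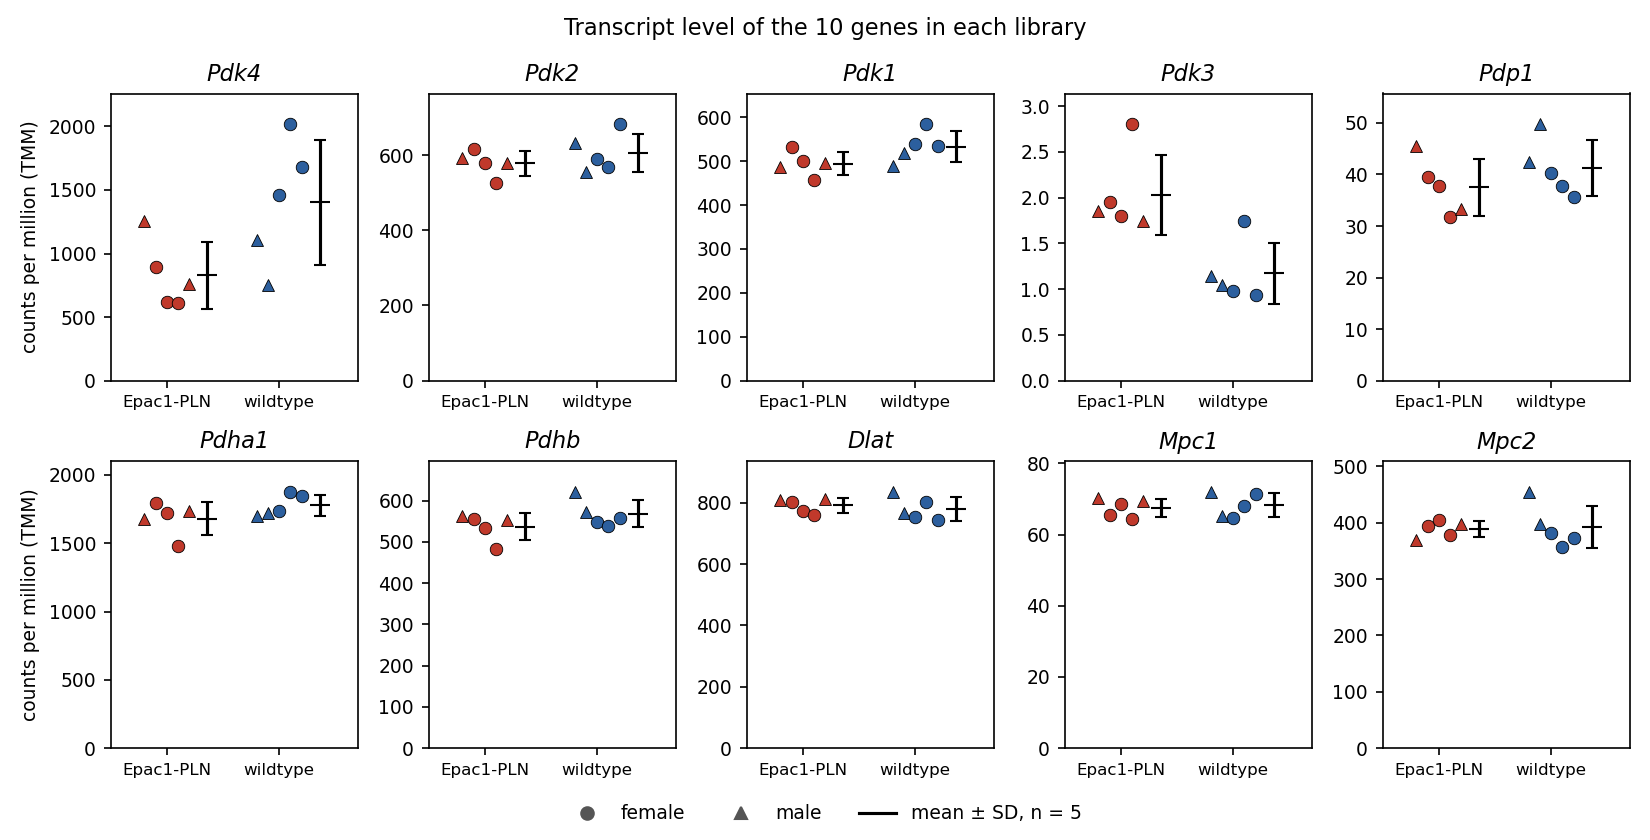
Transcript level of the 10 genes in CPM (vertical axes, each from 0), for 5 Epac1-PLN libraries (red, left) and 5 wildtype libraries (blue, right). Circles are females, triangles are males and bars give the mean ± SD. Pdk4 spreads widely and is lowest in Epac1-PLN replicate 4 at 608.7 CPM and highest in wildtype replicate 4 at 2017 CPM, while Dlat and Mpc1 hardly vary.

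None of the 10 genes was called with genotype, in a test in which 0.641% of 12629 genes were. A called gene is one with a Benjamini-Hochberg adjusted p under 0.05 by edgeR's quasi-likelihood test with sex in the model. At an unadjusted p under 0.05, 2 of the 10 genes passed, Pdk3 and Pdk4, against 12.2% of all genes. Log2 fold changes, Epac1-PLN over wildtype, were above 0 for 2 genes and below 0 for 8, with a median of -0.07 against 0.00 over all genes. The median size of the change was 0.08 for the 10 genes and 0.10 for all genes. DESeq2 and limma-voom also called none of the 10, with 265 and 73 of 12629 genes called. The fit without a filter on low counts called Pdk4, with 498 of 22081 genes called.

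Pdk4 (ENSMUSG00000019577, chr6:5483351-5496309, minus strand) is the kinase most tied to fatty acid use. It had 1255, 895.4, 622.2, 608.7 and 761.8 CPM in Epac1-PLN replicates 1 to 5, against 1110, 753, 1461, 2017 and 1680 CPM in wildtype replicates 1 to 5. The groups overlapped, because the male Epac1-PLN replicate 1 was high and the male wildtype replicate 2 was low. The means were 829 ± 265 CPM in Epac1-PLN cells, compared with 1404 ± 491 CPM in wildtype cells (SD, n = 5 each). The log2 fold change was -0.73 ± 0.31 (SE, 95% interval -1.42 to -0.03), with an adjusted p of 0.383 by edgeR. Without Epac1-PLN replicate 4 it was -0.58, with an adjusted p of 0.557. In isolated cells, fewer cells of a type and less RNA per cell cannot be told apart.

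Split by sex, Pdk4 was apart between the genotypes in the females. Epac1-PLN females had 895.4, 622.2 and 608.7 CPM, against 1461, 2017 and 1680 CPM in wildtype females. All 3 Epac1-PLN females were thus below all 3 wildtype females. Female groups were apart in this way, in either direction, for 12.5% of all tested genes. Epac1-PLN males had 1255 and 761.8 CPM, against 1110 and 753 CPM in wildtype males, and these ranges overlapped. The log2 fold change was -1.28 ± 0.24 in females (95% interval -1.82 to -0.74) and 0.11 ± 0.29 in males (-0.54 to 0.76). The adjusted p was 0.146 in females and 0.95 in males by edgeR, so Pdk4 was called in neither sex. The background of calls was 0.0633% in females and 0.0158% in males, and none of the 10 genes was called in either. Leaving out each library in turn kept the female log2 fold change between -1.48 and -1.14. Only without Epac1-PLN replicate 2 was it called, with an adjusted p of 0.0436. That fit called 71 of 12697 genes in females, against 8 of 12629 with all libraries. Without Epac1-PLN replicate 4 the female log2 fold change was -1.18, with an adjusted p of 0.485.

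The difference between the sexes was itself tested. The genotype-by-sex term of Pdk4 was -1.39 ± 0.37 on the log2 scale (95% interval -2.24 to -0.55), and ranked 29 among 12629 genes by p. The adjusted p was 0.993, and edgeR called no gene for this term (0.0% of genes, with 3.75% at an unadjusted p under 0.05). Of the 10 genes, Pdk4 alone had an unadjusted p under 0.05. DESeq2 gave an adjusted p of 0.0943 for it. The term ran between -1.701 and -0.98 over the alternatives, the smallest of them without Epac1-PLN replicate 1. The difference in the males rests on 2 libraries per genotype, whose Pdk4 values differed by more within a genotype than between genotypes.

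Cardiomyocyte markers summed to 117600 to 137300 CPM in Epac1-PLN females, against 131700 to 144500 CPM in wildtype females, with 4 of 10 higher. In males they summed to 124400 to 133800 CPM with the transgene, against 120600 to 132300 CPM in wildtype. The ranges overlapped in both sexes. Markers of other cells were read in the same females, and then in the males. All 10 endothelial markers had a higher mean in Epac1-PLN females. They summed to 622.6 to 1318 CPM there, against 691.8 to 878.4 CPM in wildtype females. The lowest and the highest sum were thus both in Epac1-PLN females, and the ranges overlapped. The median log2 fold change of these markers in females was 0.37, and their median genotype-by-sex term was 0.70. None was called in either test, against 0.0633% and 0.0% of all genes. Fibroblast markers summed to 260.0 to 435.7 CPM in Epac1-PLN females, against 247.7 to 354.7 CPM in wildtype females, with 5 of 9 higher. Smooth muscle markers summed to 598.6 to 825.4 CPM in Epac1-PLN females, against 295.9 to 739.4 CPM in wildtype females, with 5 of 7 higher. Macrophage markers summed to 36.68 to 74.82 CPM in Epac1-PLN females, against 29.90 to 60.85 CPM in wildtype females, with 7 of 9 higher. The 5 measured red cell genes summed to 6.247 to 19.14 CPM in Epac1-PLN females, against 5.402 to 44.69 CPM in wildtype females, with none higher and Hba-a2 at 0 throughout. The males had 2 libraries per genotype. Their endothelial markers summed to 806.9 to 901.5 CPM in Epac1-PLN males, against 1060 to 1186 CPM in wildtype males. Their fibroblast markers summed to 285.0 to 433.8 CPM in Epac1-PLN males, against 445.8 to 465.3 CPM in wildtype males. The ranges of the smooth muscle, macrophage and red cell sums overlapped in the males. The part of these cells in the Pdk4 difference was not tested. Adipocyte markers summed to at most 1.2 CPM in Epac1-PLN females, against 1.965 CPM in wildtype females, with Lep at 0 in all libraries.

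**Figure D2:**
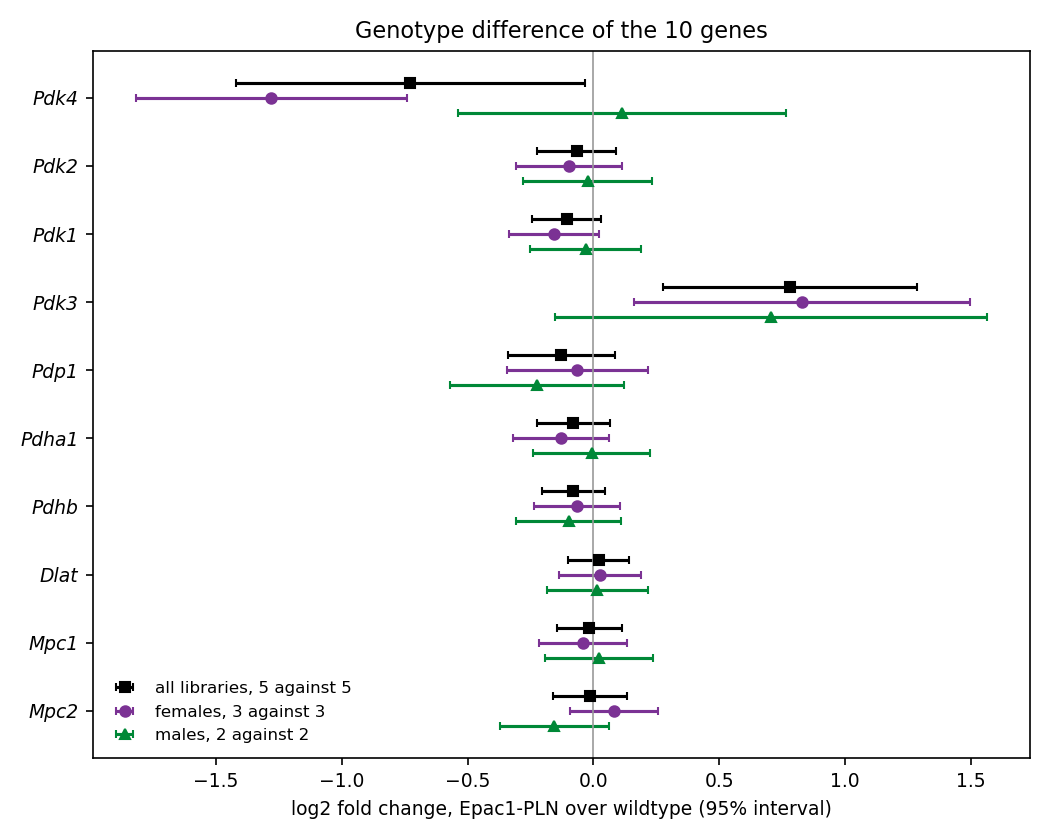
Log2 fold change, Epac1-PLN over wildtype (horizontal axis), with its 95% interval from edgeR for each of the 10 genes: all libraries (squares), females (circles) and males (triangles). Pdk4 lies at -1.28 in females and at 0.11 in males, and the other genes apart from Pdk3 lie between -0.22 and 0.08 in all 3 fits.

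Pdk3 (ENSMUSG00000035232, chrX:93764607-93832201, minus strand) is known as the kinase least inhibited by pyruvate. It had 1.855, 1.948, 1.799, 2.801 and 1.749 CPM in Epac1-PLN replicates 1 to 5, against 1.142, 1.049, 0.9823, 1.749 and 0.9374 CPM in wildtype replicates 1 to 5. The lowest Epac1-PLN library and the highest wildtype library met at 1.749 CPM, and no other pair crossed. Groups of 5 were fully apart for 2.75% of tested genes. With median-of-ratios scaling Pdk3 overlapped, with a lowest normalized count of 25.78 in Epac1-PLN and a highest of 25.87 in wildtype. These levels rest on 20 to 42 counts in Epac1-PLN libraries and 12 to 27 in wildtype libraries. The exact Poisson 95% interval of the lowest of these counts ran over 6.2 to 21 counts, and of the highest over 30.3 to 56.8, for counting error only. The log2 fold change was 0.78 ± 0.23 (95% interval 0.28 to 1.29), with an adjusted p of 0.174 by edgeR. It was 0.65 without Epac1-PLN replicate 4 (adjusted p = 0.258). In females the log2 fold change was 0.83 ± 0.31 and in males 0.71 ± 0.39, with a genotype-by-sex term of 0.12 (95% interval -0.97 to 1.21).

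Pdk2 and Pdk1 are the other kinases of the heart. Pdk2 (chr11:95026258-95041354, minus strand) averaged 578 ± 33.5 CPM in Epac1-PLN cells, compared with 606 ± 51.6 CPM in wildtype cells. Its log2 fold change was -0.07 (95% interval -0.22 to 0.09), with an adjusted p of 0.783. Pdk1 (chr2:71873224-71903858, plus strand), a target of hypoxia signalling, averaged 494 ± 27.0 CPM in Epac1-PLN cells, compared with 533 ± 35.1 CPM in wildtype cells. Its log2 fold change was -0.11 (-0.24 to 0.03), with an adjusted p of 0.547. In both genes the groups overlapped and the interval left room for a fall of at most 0.24 on the log2 scale.

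The make-up of the kinase transcripts followed the Pdk4 level. Per kb of exon, Pdk4 made up 48.0% ± 6.71 of the transcripts of the 4 kinases in Epac1-PLN cells and 59.1% ± 8.54 in wildtype cells (SD, n = 5 each). Pdk2 made up 38.5% ± 4.78 in Epac1-PLN cells and 30.1% ± 6.51 in wildtype cells. Pdk1 made up 13.4% ± 1.90 in Epac1-PLN cells and 10.8% ± 2.27 in wildtype cells. Pdk3 made up 0.17% and 0.071%. Among the females the share of Pdk4 was 41.7% to 49.1% in Epac1-PLN libraries and 61.9% to 69.2% in wildtype libraries, with a gap between them. Among the males it was 46.7% to 58.8% in Epac1-PLN libraries and 46.9% to 54.6% in wildtype libraries. Shares sum to a whole, so they restate the Pdk4 levels and were given no test. With coding length, the mean share of Pdk1 over all libraries was 23.0% in place of 12.1%, and that of Pdk4 48.7% in place of 53.5%.

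**Figure D3:**
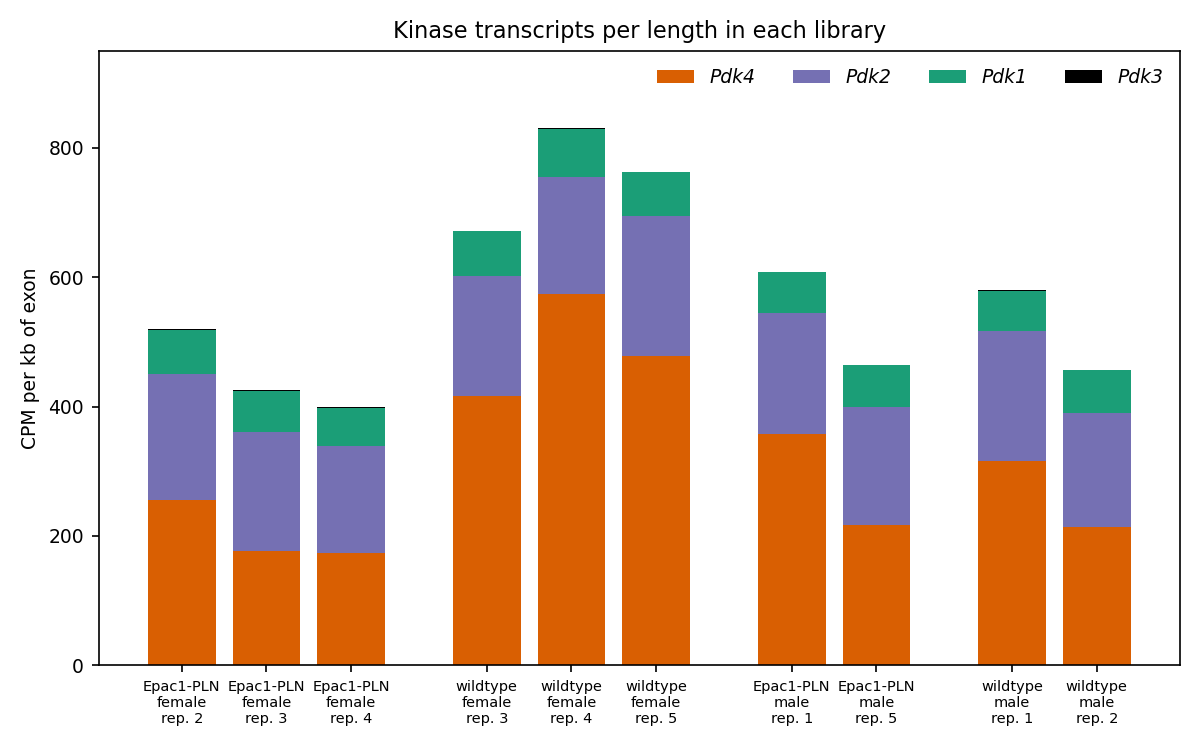
Stacked transcript level of the 4 kinases in CPM per kb of exon (vertical axis, from 0) in each library, with Epac1-PLN left of wildtype within each sex. The stack reaches at most 519.3 in Epac1-PLN females and at least 671.9 in wildtype females; Pdk4 (orange) carries the difference, and Pdk3 (black) is barely visible.

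Pdp1 encodes the calcium-activated catalytic subunit of the phosphatase that opposes the kinases. It lies at chr4:11958184-11966452 on the minus strand. It averaged 37.6 ± 5.53 CPM in Epac1-PLN cells, compared with 41.2 ± 5.41 CPM in wildtype cells, with a log2 fold change of -0.13 (95% interval -0.34 to 0.08) and an adjusted p of 0.67. The summed kinases stood 58.0 ± 4.57 times above Pdp1 per kb of exon in Epac1-PLN cells and 74.7 ± 24.2 times in wildtype cells, so the difference was smaller than the wildtype spread. In females alone the ratio was 55.6 ± 4.30 in Epac1-PLN cells and 90.2 ± 13.1 in wildtype cells (n = 3 each). In males it was 61.5 ± 2.07 in Epac1-PLN cells and 51.5 ± 14.3 in wildtype cells (n = 2 each), and these ranges overlapped.

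The subunits of the complex differed little between the genotypes. Pdha1 encodes the subunit that the kinases phosphorylate (chrX:160122209-160138413, minus strand). It averaged 1681 ± 120 CPM in Epac1-PLN cells, compared with 1777 ± 79.3 CPM in wildtype cells, a log2 fold change of -0.08 (95% interval -0.22 to 0.06, adjusted p = 0.707). Pdhb, its E1 beta partner (chr14:8165991-8172992, minus strand), averaged 537 ± 32.3 CPM in Epac1-PLN cells, compared with 568 ± 32.6 CPM in wildtype cells, a log2 fold change of -0.08 (-0.21 to 0.05, adjusted p = 0.655). Dlat, the E2 core that carries the acetyl group (chr9:50634633-50659780, minus strand), averaged 791 ± 23.9 CPM in Epac1-PLN cells, compared with 780 ± 38.4 CPM in wildtype cells, a log2 fold change of 0.02 (-0.10 to 0.14, adjusted p = 0.938). Epac1-PLN replicate 4 was the lowest library for Pdha1 at 1479 CPM and for Pdhb at 482.9 CPM. Without that library the log2 fold changes of Pdha1 and Pdhb were -0.03 and -0.05. The 2 E1 subunits form a tetramer in equal numbers, and per kb of exon Pdha1 stood 3.24 ± 0.114 times above Pdhb in Epac1-PLN cells and 3.25 ± 0.295 times in wildtype cells.

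The genes of the pyruvate carrier likewise differed little. Mpc1 averaged 67.6 ± 2.54 CPM in Epac1-PLN cells, compared with 68.3 ± 3.39 CPM in wildtype cells, with a log2 fold change of -0.02 (95% interval -0.15 to 0.11, adjusted p = 0.959). The pseudogene row averaged 102 ± 14.6 CPM in Epac1-PLN libraries and 99.9 ± 7.36 CPM in wildtype libraries. It took 57.2% to 63.8% of the counts of the pair in every library. Together they reached 169 ± 16.8 CPM in Epac1-PLN cells, compared with 168 ± 10.4 CPM in wildtype cells. Mpc2 (chr1:165461037-165481214, plus strand), which needs Mpc1 to form the carrier, averaged 389 ± 14.6 CPM in Epac1-PLN cells, compared with 393 ± 37.8 CPM in wildtype cells. Its log2 fold change was -0.01 (-0.16 to 0.13, adjusted p = 0.971). For the 8 genes other than Pdk3 and Pdk4, all intervals of the genotype effect lay between -0.34 and 0.14 on the log2 scale.

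None of the 10 genes was called with sex, against 0.34% of all genes, and none had an unadjusted p under 0.05, against 10.4% of all genes. Pdha1 and Pdk3 lie on the X chromosome. Pdha1 averaged 1743 ± 142 CPM in 6 females and 1709 ± 24.9 CPM in 4 males, a log2 fold change, female over male, of 0.03 (95% interval -0.12 to 0.17). Pdk3 averaged 1.703 ± 0.69 CPM in females and 1.45 ± 0.41 CPM in males, with a log2 fold change of 0.22 (-0.30 to 0.74). Pdk4 averaged 1214 ± 590 CPM in females and 970 ± 253 CPM in males (log2 fold change 0.15, -0.55 to 0.86), a mean over females of both high and low genotypes. The smallest p belonged to Pdp1, at 37.1 ± 3.12 CPM in females and 42.7 ± 7.02 CPM in males (log2 fold change -0.20, adjusted p = 0.509).

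How the 10 genes moved together from library to library was tested in pairs. Of 45 pairs, 32 had a correlation of log2 CPM above 0. One pair passed after adjustment over the 45: Pdk1 with Pdha1, with Pearson's r = 0.878 (permutation p = 0.00078, adjusted p = 0.0351) and Spearman's rho = 0.915 (permutation p = 0.00057, adjusted p = 0.0256) over 10 libraries. Without the 2 libraries farthest from the median of Pdk1, r was 0.751, and after removing sex and genotype means it was 0.88. Pdk1 with Pdk4 had r = 0.716 and did not pass (permutation test, adjusted p = 0.293). With 10 libraries, a pair that did not pass may still vary together. The 10 libraries share their scaling factors between genes.

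Other genes of pyruvate use were read from lists. Of 9 tested genes of the rest of the complex, its cofactors and its other phosphatase subunits, none was called, against 0.641% of all genes. Their median log2 fold change was -0.07. Pdp2, the insulin-responsive phosphatase, averaged 31.6 ± 2.82 CPM in Epac1-PLN cells, compared with 27.2 ± 3.70 CPM in wildtype cells (log2 fold change 0.21, adjusted p = 0.432). Lipt2 and Lipt1, enzymes of the lipoate pathway, had log2 fold changes of -0.24 and -0.19 (adjusted p = 0.443 and 0.447). Pdha2, the testis form of Pdha1, had 1 count over all libraries.

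Among 14 tested genes of the other routes of pyruvate, 1 rose and none fell, in the test that called 0.641% of all genes. The one that rose was Slc16a7, the monocarboxylate transporter MCT2, which carries pyruvate and lactate across the cell membrane with high affinity. It averaged 17.2 ± 2.67 CPM in Epac1-PLN cells (14.32 to 20.22) and 10.3 ± 2.17 CPM in wildtype cells (8.045 to 13.34). The groups did not overlap, which held for 2.75% of tested genes. The log2 fold change of Slc16a7 was 0.75 ± 0.13 (SE), with an adjusted p of 0.0197 by edgeR. The call was lost in 5 of the 10 fits that leave out a library, with adjusted p up to 0.09: those without wildtype replicates 1, 2 or 5 or Epac1-PLN replicates 1 or 3. Its log2 fold change was between 0.68 and 0.84 over the 10 fits. The call was also lost with no sex term (adjusted p = 0.0552), with a replicate block (0.102) and in either sex alone. Slc16a1, of the same transporter family, was more abundant and was not called. It averaged 464 ± 75.3 CPM in Epac1-PLN cells, compared with 424 ± 58.7 CPM in wildtype cells, and the groups overlapped. Me1, the cytosolic malic enzyme, averaged 93.6 ± 8.95 CPM in Epac1-PLN cells, compared with 108 ± 4.07 CPM in wildtype cells (log2 fold change -0.21, adjusted p = 0.25). Gpt, an alanine aminotransferase, averaged 52.1 ± 7.94 CPM in Epac1-PLN cells, compared with 64.5 ± 12.03 CPM in wildtype cells (log2 fold change -0.31, adjusted p = 0.366).

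None of 11 transcription regulators known to act on kinase genes was called with genotype, against 0.641% of all genes. Their median log2 fold change was 0.07. Ppargc1a, a coactivator of mitochondrial genes, averaged 212 ± 65.7 CPM in Epac1-PLN cells, compared with 151 ± 22.6 CPM in wildtype cells (log2 fold change 0.49, adjusted p = 0.339). Ppard, a fatty acid receptor, and Foxo1, which insulin inactivates, had log2 fold changes of 0.26 and 0.23 (adjusted p = 0.342 and 0.533).

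Among 18 genes known as PPAR targets in fatty acid use, 2 fell and none rose, in the test that called 0.641% of all genes. The list's log2 fold change was below 0 for 17 of 18 genes, with a median of -0.29, against 0.00 over all genes. The list was chosen with earlier results of these data known. Plin2, a coat protein of lipid droplets, averaged 50.6 ± 3.82 CPM in Epac1-PLN cells, compared with 68.6 ± 5.62 CPM in wildtype cells (log2 fold change -0.44 ± 0.07, adjusted p = 0.0185). The other gene that fell was Cpt1a, the liver form of carnitine palmitoyltransferase (log2 fold change -0.55 ± 0.09). The Plin2 call was lost without wildtype replicate 1, wildtype replicate 5 or Epac1-PLN replicate 3 (adjusted p up to 0.09), and the Cpt1a call without wildtype replicate 1 or Epac1-PLN replicate 3 (up to 0.0667). Both calls were also lost with a replicate block (adjusted p = 0.0572 each) and in either sex alone. Acot2, a mitochondrial thioesterase with a close paralog, Acot1, averaged 54.9 ± 10.8 CPM in Epac1-PLN cells, compared with 88.7 ± 14.1 CPM in wildtype cells (log2 fold change -0.69, adjusted p = 0.0617). Reads shared by the paralogs could be split either way. Ucp2, the one gene of the list above 0, had a log2 fold change of 0.50 (adjusted p = 0.5).

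**Figure D4:**
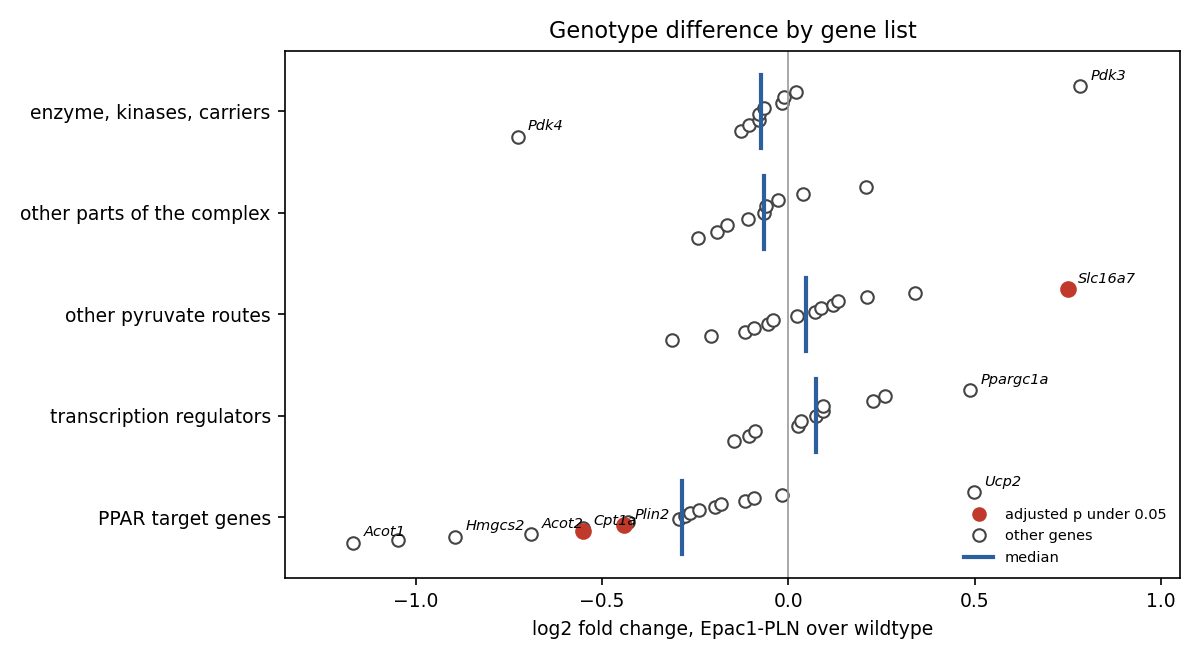
Log2 fold change, Epac1-PLN over wildtype (horizontal axis), of each tested gene in 5 lists. Filled points have an adjusted p under 0.05 by edgeR and blue lines are medians, from -0.29 for the PPAR targets to 0.07 for the transcription regulators; Slc16a7 rose, and Cpt1a and Plin2 fell.

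Several PPAR targets followed Pdk4 over the 10 libraries. Their Pearson correlation with Pdk4 (log2 CPM) had a median of 0.635 and was above 0 for 17 of 18, while over 12085 genes with a mean of at least 1 CPM the median was -0.01. These correlations include the difference between the genotypes. The highest were Acot2 and Cpt1b at 0.844, and the lowest was Ucp2 at -0.745. Cpt1b, the muscle form of the enzyme that lets fatty acids into mitochondria, averaged 61.5 ± 1.99 CPM in Epac1-PLN females, against 85.7 ± 1.65 CPM in wildtype females. It averaged 64.5 CPM in Epac1-PLN males, against 65.0 CPM in wildtype males. Its genotype-by-sex term was -0.47 ± 0.13, with an adjusted p of 0.993 by edgeR. The regulators had a median correlation with Pdk4 of -0.06, with Esrrg, an estrogen-related receptor, highest at 0.711.

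The 5 genes whose levels were most like those of Pdk4 were Deptor, Slc35a5, Rftn1, Arel1 and Ttc38, with Pearson's r of 0.963, 0.946, 0.935, 0.934 and 0.928 over the 10 libraries. Spearman's rho lay between 0.891 and 0.964, and r without the 2 libraries farthest from the median of Pdk4 between 0.869 and 0.989. These genes were chosen for likeness among 12085 genes, of which 9 had r above 0.9 and 4 below -0.9, so the correlations carry no test. Deptor, an inhibitor of mTOR, averaged 11.6 ± 1.11 CPM in Epac1-PLN females, against 15.9 ± 0.797 CPM in wildtype females, and 13.4 CPM in the males of both genotypes. None of the 5 was called with genotype, against 0.641% of all genes.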

How the data were processed

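RNA of isolated cardiomyocytes from 10 mice was made into TruSeq libraries and read on an Illumina HiSeq2000, as the labels' protocols state. The authors deposited raw counts of reads per gene, used here, and a table of normalized values, not used here. Per the submitters' processing notes, the build was mm10, and STAR 2.3.0, HTSeq 0.5.4, CASAVA 1.8.2, FastQC 0.10.0, DESeq2 and DESeq were used. The sources used here give no annotation, strand or multi-mapping setting, so how reads were counted where genes overlap is not known. Map3k15 (305 counts in all) overlaps Pdha1 and 4930506C21Rik (124 counts) overlaps Mpc1, each on the opposite strand.

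Counts were filtered with filterByExpr, scaled with TMM and tested with edgeR 4.0.16 (R 4.3.3) in a model of sex and genotype. The genotype-by-sex term and the effect in each sex came from a model with that term. P-values were Benjamini-Hochberg adjusted over 12629 genes at 0.05. Alternatives used DESeq2 1.42.0, limma 3.58.1, other scaling, filters, covariates and samples. Lengths came from GENCODE M21. Correlations used 100000 permutations. The fit was tested on simulated data. P-values measure the spread between these libraries, labelled as biological replicates. Libraries of a group differed by more than sampling noise in each of 20 pairs, with a chi-square of 7.64 to 33.3 per degree of freedom.

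Named genes were the 10, the 5 most like Pdk4, and of each list the called members and up to 3 with the smallest p. Genes and lists were chosen with earlier results of these data known. Cpt1b, Ucp2, Esrrg, Pdha2 and Slc16a1 were added after their values were seen.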

Additional observations from a re-analysis of the deposited data

Results flagged for a closer look

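Pdk3 was flagged in both genotypes, because in each group 1 library stood far from the other 4. Epac1-PLN replicate 4 had 2.801 CPM, against 1.749 to 1.948 CPM in the other Epac1-PLN libraries. Wildtype replicate 4 had 1.749 CPM, against 0.9374 to 1.142 CPM in the other wildtype libraries. Both are female libraries, and they hold 42 and 27 Pdk3 counts. Over the 20 groups looked at, chance flags about 1 in 20 groups.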

How the results depend on the processing

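With genotype, 81 genes were called; DESeq2 called 265, the fit with no filter 498, the fit with no sex term 37, females only 4 and males only 13, and leaving out each library in turn gave 14 to 103. The replicate block left 2 genes called and 0 of the 10. Correlations of same-numbered libraries were -0.3 to 0.352, over 0.1 for 3 of 5 numbers, and those 3 matched their own number best. Sex was not removed from these correlations, and it differed between the libraries of numbers 2 and 5. A pairing was not shown for all numbers. With no filter 1 of the 10 was called by edgeR, Pdk4 (log2 fold change -0.74, adjusted p = 4.69e-15), among 498 called of 22081 genes. Its genotype-by-sex term of -1.391 was also called (adjusted p = 2.70e-13), among 164 called of 22081 genes. The standard error of that term was 0.168, against 0.375 in the main fit at nearly the same estimate, and the cause was not tested. For Pdk4 in females, leaving out each library gave -1.483 to -1.144, called only without Epac1-PLN replicate 2. That fit called 71 genes in females, against 8 with all libraries. With sex, 43 genes were called; DESeq2 called 158 and no filter 521, and leaving out each library gave 18 to 93. For genotype and sex over the whole table, no other alternative called any of the 10. Direction with genotype was kept in 20 of 20 alternatives for 7 of the 10 genes, and in 19 for Pdk4 (0.11 in males only), 18 for Mpc1 and 17 for Mpc2. A coding length from RefSeq proteins was not run. With 5 libraries a group, the smallest standard error of the 10 was 0.056 and that of Pdk4 0.31 on the log2 scale, so a modest change of Pdk4 was not detectable; Pdk3 is limited by its counts.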
